A study of Mus musculus with 6 samples.

Results

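The hypoxia-linked miRNAs miR-210, miR-103 and miR-107 were followed in small RNA libraries of mouse brain after transient ischemia. Members were the entries of the deposited count tables named miR-210-, miR-103- or miR-107- with any arm. They were 5 of 622 mature miRNA names, namely mmu-miR-210-3p, mmu-miR-103-3p, mmu-miR-107-3p, mmu-miR-103-2-5p and mmu-miR-107-5p, written below without the mouse prefix. They took 6 of 727 rows, because miR-103-3p was listed once for each of its 2 hairpins and the row with the higher total was kept. The GCI group held 3 libraries (1, 2 and 3) of brain from C57BL/6J mice, an inbred laboratory strain, whose carotid arteries were ligated on both sides for 20 minutes before reperfusion. The Sham group held 3 libraries (3, 6 and 7) of brain from C57BL/6J mice with a sham operation. The labels are silent on brain region, reperfusion time, sex and age. Nothing in the labels says that each library came from its own animal, so the p-values speak of the spread between libraries, which may be technical.

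miR-210 is the miRNA most often reported to be induced in hypoxic cells. The transcription factor HIF-1α activates its gene when oxygen is low, and its targets include the iron-sulfur cluster assembly protein ISCU, which links it to lowered mitochondrial respiration. miR-103 and miR-107 are close paralogs that lie in introns of the pantothenate kinase genes. They are known to repress Dicer, the enzyme that cuts miRNA precursors, and caveolin-1, and miR-107 has been described as a repressor of the HIF partner HIF-1β. The comparison of GCI with Sham brain asks whether these miRNAs were still changed when the tissue was taken.

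The mature strands are shown because their seeds and their single differing base decide which reads can be told apart. Sequences and positions are from RefSeq on GRCm38.p6; the build behind the counts was not given in the sources used here. All 5 members were found there by name. The seed (bases 2 to 8 from the 5′ end) is in capitals.
miR-210-3p: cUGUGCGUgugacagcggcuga
miR-103-3p: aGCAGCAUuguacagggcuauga
miR-107-3p: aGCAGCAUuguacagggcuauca
miR-103-2-5p: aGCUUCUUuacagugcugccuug
miR-107-5p: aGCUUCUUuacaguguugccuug
miR-16-5p: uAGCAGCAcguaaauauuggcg
miR-195a-5p: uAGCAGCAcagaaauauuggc
miR-15a-5p: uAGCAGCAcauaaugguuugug

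miR-103-3p and miR-107-3p shared the seed GCAGCAU and differed by 1 substitution in 23 bases, G22C, with miR-103-3p as the first base and positions counted from the 5′ end. A read that ends at or before base 21 is the same for both. The 5p strands of the second miR-103 hairpin and of miR-107 also differed at 1 base, C16U, counted in the same way from miR-103-2-5p. Of the 519 names in the tables that had a RefSeq sequence, 0 others shared the seed of miR-210-3p, and miR-103-3p and miR-107-3p were the 2 that held GCAGCAU. miR-16-5p, miR-195a-5p and miR-15a-5p belong to the wider group of miR-15 and miR-107: the run AGCAGCA starts at base 1 of miR-103-3p and at base 2 of these strands.

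The hairpins are shown because both arms of each can be read from them, with annotated mature strands in capitals, the 5p strand first.
Mir210: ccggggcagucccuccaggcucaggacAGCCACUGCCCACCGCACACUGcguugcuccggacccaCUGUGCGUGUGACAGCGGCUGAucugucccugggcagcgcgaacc
Mir103-1: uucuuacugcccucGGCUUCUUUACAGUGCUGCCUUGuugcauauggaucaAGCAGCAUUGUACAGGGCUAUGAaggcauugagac
Mir103-2: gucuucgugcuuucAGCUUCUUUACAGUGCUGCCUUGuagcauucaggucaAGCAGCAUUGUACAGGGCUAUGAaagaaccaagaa
Mir107: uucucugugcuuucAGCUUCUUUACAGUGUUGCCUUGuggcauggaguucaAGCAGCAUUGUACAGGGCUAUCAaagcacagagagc

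Mir210 lies at chr7:141221384-141221493 on the minus strand of GRCm38, between the protein-coding genes Rassf7 (2726 bp away) and Phrf1 (7291 bp away) in GENCODE vM21. Mir103-1 lies at chr11:35782396-35782481 on the plus strand, in an intron of Pank3. Mir103-2 lies at chr2:131288052-131288137 on the plus strand, in an intron of Pank2. Mir107 lies at chr19:34820687-34820773 on the minus strand, in an intron of Pank1. Each of the 3 intronic hairpins has the strand of its host gene. The 5p strands of Mir210 and Mir103-1 had no entry under their names in the deposited counts and so were not analysed here.

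With 1 entry per mature name, libraries held 1559288 to 2023475 counts in GCI and 1423905 to 1750612 in Sham. The brain label was checked against miR-124-3p, miR-9-5p and miR-128-3p, all abundant in neurons, which together made 83583 to 94402 CPM (counts per 1e6 scaled counts) in GCI and 88903 to 105808 CPM in Sham. Most of this was miR-9-5p, with means of 67551 CPM in GCI and 69858 CPM in Sham. Log2 fold changes were -0.31 for miR-124-3p, -0.05 for miR-9-5p and -0.48 for miR-128-3p, and edgeR called 0 of the 3 past an adjusted p of 0.05. Only miR-128-3p had groups without overlap, with GCI lower, as did 51 of 440 tested miRNAs (11.6%). The 8 epithelial and sensory-organ markers of the miR-200 family and the miR-183 cluster summed to 22069 to 50923 CPM in GCI, against 1982 to 7191 CPM in Sham. All 8 were higher in GCI past an adjusted p of 0.05 by edgeR, and they were among the 10 of 440 tested miRNAs (2.27%) that passed. Without GCI library 3 or Sham library 6, 0 of all tested miRNAs passed, and without GCI library 1 only 1 did. Without Sham library 3, Sham library 7 or GCI library 2, the numbers were 10, 9 and 100. The number of calls thus depended on which library was left out, and each such fit had fewer libraries. All 8 markers were higher in every GCI library than in any Sham library, as were 45 of 440 tested miRNAs (10.2%). The 3 red blood cell markers summed to 405 to 551 CPM in GCI and 391 to 449 CPM in Sham, and the 4 leukocyte markers to 398 to 672 CPM in GCI and 394 to 467 CPM in Sham. Of these 7, edgeR called 0 past the adjusted threshold. The leukocyte markers did not move together, and each overlapped between the groups. Their log2 fold changes were 1.18 for miR-142a-5p, 0.72 for miR-142a-3p, 0.05 for miR-150-5p and -0.96 for miR-223-3p. miR-486a-5p of red blood cells stood at 274, 126 and 195 CPM in GCI libraries 1, 2 and 3 and at 93.7, 110 and 91.5 CPM in Sham libraries 3, 6 and 7, without overlap (adjusted p = 0.128, edgeR, Benjamini-Hochberg), and was singled out after its values were seen. Groups did not overlap, with GCI higher, for 45 of 440 tested miRNAs (10.2%). The red blood cell markers miR-451a and miR-144-3p overlapped, with log2 fold changes of -0.17 and 0.04. In bulk tissue, fewer cells of a type and less of a miRNA per cell cannot be told apart.

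None of miR-210-3p, miR-103-3p and miR-107-3p passed the test between GCI and Sham. A call was an adjusted p under 0.05 in the quasi-likelihood test of edgeR, adjusted by Benjamini and Hochberg's method over 440 tested miRNAs. Of the 440, 10 passed, which is 2.27%, so 0 of 3 is near that background. The 10 became 0 without GCI library 3 or Sham library 6, 1 without GCI library 1 and 100 without GCI library 2. At an unadjusted p under 0.05, 74 of the 440 (16.8%) and 0 of the 3 passed, and DESeq2 also called 0 of the 3, against 27 of 453 (5.96%) miRNAs with an adjusted p. In each of the 3 the groups overlapped. None of the 3 passed in any of 16 other settings, including each library left out in turn.

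miR-210-3p stood at 42.2, 58.6 and 43.0 CPM in GCI libraries 1, 2 and 3 and at 49.9, 41.8 and 46.0 CPM in Sham libraries 3, 6 and 7. GCI library 2 was the highest of the 6, and the other GCI values lay inside the Sham range. These levels rested on 63, 94 and 89 reads in GCI and 83, 61 and 80 reads in Sham. The exact 95% Poisson interval of GCI library 2, 47.3 to 71.7 CPM, overlapped those of all 3 Sham libraries, which ran from 31.9 to 61.8 CPM. Such intervals cover counting error alone, not the spread between libraries. They may be too narrow even for counting error, because reads copied by PCR need not stem from separate molecules. Group means were 47.9 ± 9.26 CPM in GCI and 45.9 ± 4.05 CPM in Sham (SD, n = 3 each).

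The log2 fold change of miR-210-3p was 0.060 ± 0.22 (SE; adjusted p = 0.909, edgeR, Benjamini-Hochberg). As a fold change this is 1.04, with a 95% interval of 0.734 to 1.48. A rise above 1.48-fold or a fall below 0.734 of the Sham level thus lay outside the interval. The sign turned without GCI library 2, to a log2 fold change of -0.11. By rank of level, miR-210-3p was 255th to 271st of 622 names in GCI libraries and 264th to 277th in Sham libraries.

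**Figure D1:**
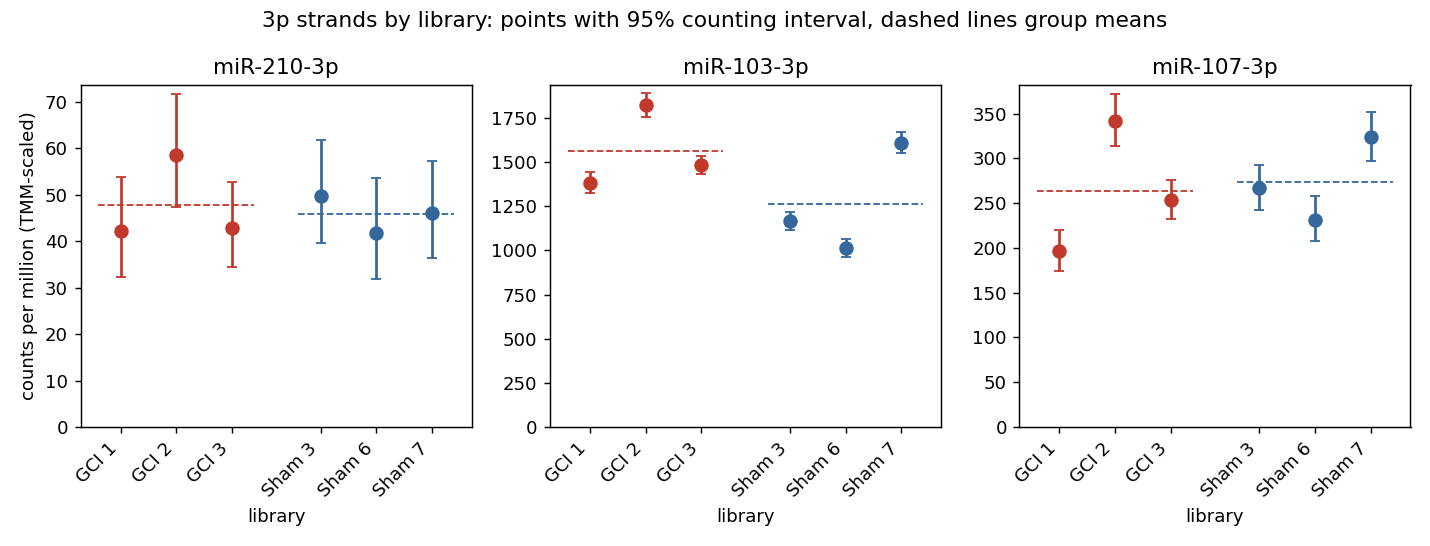
TMM-scaled CPM of miR-210-3p, miR-103-3p and miR-107-3p (vertical axes from 0) in each GCI library (red) and Sham library (blue); bars are exact 95% Poisson intervals of the count and dashed lines are group means. The groups overlapped for each strand, and GCI library 2 was the highest library in each panel.

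miR-103-3p, the most abundant member, stood at 1384, 1824 and 1483 CPM in GCI libraries 1, 2 and 3 and at 1164, 1012 and 1609 CPM in Sham libraries 3, 6 and 7. All GCI values lay above Sham libraries 3 and 6, while Sham library 7 lay above GCI libraries 1 and 3. Means were 1564 ± 231 CPM in GCI and 1262 ± 310 CPM in Sham (SD, n = 3 each). The log2 fold change was 0.31 ± 0.23 (adjusted p = 0.489, edgeR, Benjamini-Hochberg), or 1.24-fold with a 95% interval of 0.870 to 1.76. It was positive with each library left out, from 0.18 without GCI library 2 to 0.53 without Sham library 7.

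miR-107-3p stood at 196, 342 and 253 CPM in GCI libraries 1, 2 and 3 and at 267, 231 and 323 CPM in Sham libraries 3, 6 and 7. The lowest and the highest of the 6 values were both GCI libraries. Means were 264 ± 73.6 CPM in GCI and 274 ± 46.4 CPM in Sham (SD, n = 3 each). The log2 fold change was -0.05 ± 0.25 (adjusted p = 0.920, edgeR, Benjamini-Hochberg), or 0.964-fold with a 95% interval of 0.651 to 1.43. Its sign turned in 4 of 16 other settings, so no direction can be given. Two-sided exact permutation tests on log2 CPM gave p = 0.8 for miR-210-3p, 0.3 for miR-103-3p and 0.9 for miR-107-3p, where 3 against 3 libraries cannot go below 0.1.

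**Figure D2:**
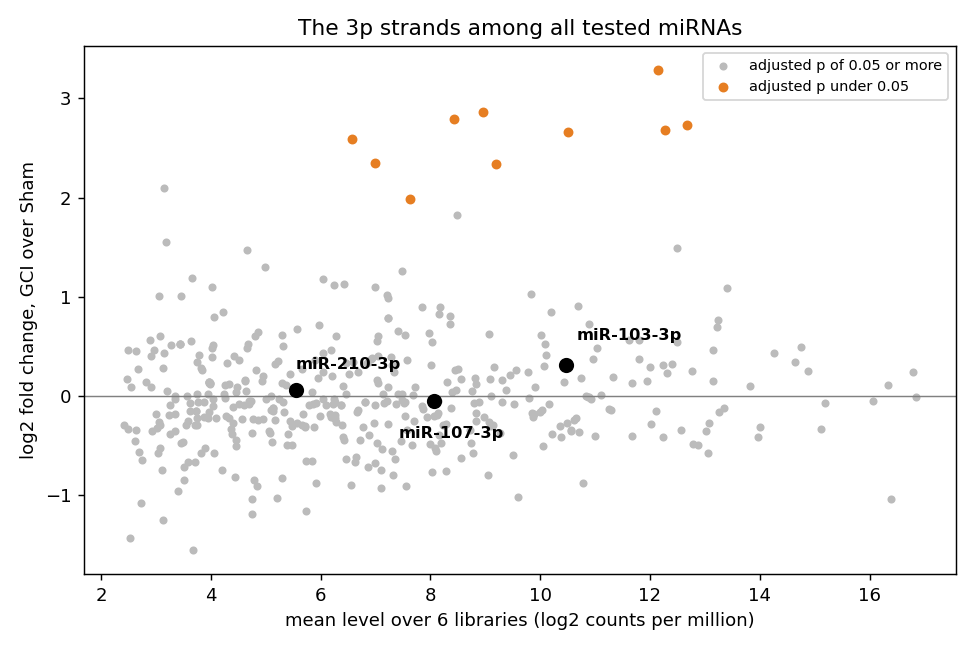
Log2 fold change of GCI over Sham (vertical axis) against the mean level over the 6 libraries (horizontal axis, log2 CPM) for the 440 tested miRNAs; each point is 1 miRNA, orange where the adjusted p was under 0.05. The 3 strands in black lay at 0.06, 0.31 and -0.05, inside the spread of the grey points.

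GCI and Sham libraries did not overlap in the balance between the paralogs miR-103-3p and miR-107-3p, though the exact test used cannot reach 0.05 with 3 libraries per group. Of the reads given to miR-103-3p or miR-107-3p, miR-107-3p made up 12.4%, 15.8% and 14.6% in GCI libraries 1, 2 and 3, against 18.6%, 18.6% and 16.7% in Sham libraries 3, 6 and 7. These shares rested on 2361, 3475 and 3598 reads in GCI and on 2382, 1817 and 3358 reads in Sham. All GCI shares lay below all Sham shares, with means of 14.3% ± 1.72 in GCI and 18.0% ± 1.09 in Sham (SD, n = 3 each). The nearest libraries were GCI 2, with an exact 95% binomial (Clopper-Pearson) interval of 14.6% to 17.1%, and Sham 7, with 15.5% to 18.0%, so those 2 could not be separated by counting alone.

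The log2 ratio of miR-107-3p to miR-103-3p averaged -2.59 ± 0.21 in GCI and -2.19 ± 0.11 in Sham (SD, n = 3 each), a difference of -0.40. A two-sided exact permutation test over libraries gave p = 0.1, and 0.2 after Benjamini-Hochberg adjustment over 2 ratios. Because 0.1 is the smallest p that 3 against 3 allow, this test could not pass 0.05 and does not decide whether the balance differed. A ratio within a library does not depend on how libraries were scaled. The difference kept its sign with each library left out, from -0.49 without GCI library 2 to -0.29 without GCI library 1. For the levels of single miRNAs, 96 of 440 (21.8%) had groups that did not overlap, 45 (10.2%) with GCI higher and 51 (11.6%) with GCI lower. The strands differ at base 22 (G22C), and the labels do not say how shorter reads were assigned to the 2 names. The 2 rows of miR-103-3p held nearly equal counts, 2064 and 2068 in GCI library 1, so reads matching both rows were counted in each. Whether reads shared by miR-103-3p and miR-107-3p were also counted under both names was not tested. The binomial intervals take all counts as separate reads. The epithelial and sensory-organ markers given above also did not overlap between the groups; their part in this ratio was not tested.

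**Figure D3:**
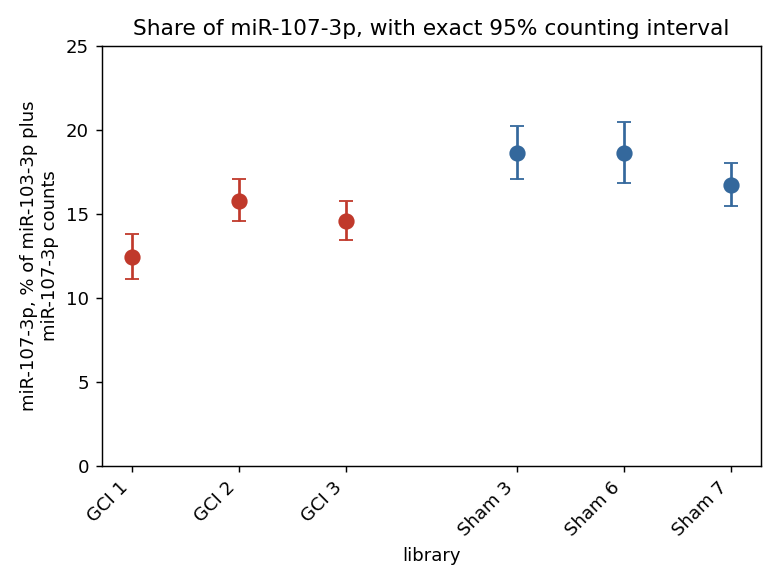
Percentage of miR-107-3p among the summed counts of miR-103-3p and miR-107-3p (vertical axis, from 0) in each GCI library (red) and Sham library (blue), with exact 95% binomial intervals. GCI libraries sat at 12.4% to 15.8% and Sham libraries at 16.7% to 18.6%.

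Set against miR-103-3p and miR-107-3p together, miR-210-3p had overlapping values in the groups. It had 26.7, 27.1 and 24.7 reads per 1000 reads of miR-103-3p and miR-107-3p in GCI libraries 1, 2 and 3, against 34.8, 33.6 and 23.8 in Sham libraries 3, 6 and 7. Sham library 7 lay below all GCI libraries, and the other Sham libraries lay above them. The log2 ratio differed by -0.21 between GCI and Sham (two-sided exact permutation p = 0.4, adjusted p = 0.4). Ligation favours some end sequences, so such ratios compare libraries, not the amounts of the different miRNAs.

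The 5p strands, the less abundant products of their hairpins, were too low for the filter and were not tested with the others. miR-107-5p had 5, 4 and 6 reads in GCI libraries 1, 2 and 3, against 12, 6 and 12 in Sham libraries 3, 6 and 7. On the CPM scale these were 3.35, 2.49 and 2.90 in GCI and 7.21, 4.11 and 6.91 in Sham, all GCI values below all Sham values. Such a separation, with GCI lower, was seen for 51 of the 440 tested miRNAs (11.6%). The summed 15 GCI reads had an exact 95% Poisson interval of 8.40 to 24.7 and the 30 Sham reads one of 20.2 to 42.8. Fitted with no filter over 622 names, miR-107-5p had a log2 fold change of -1.03 ± 0.47 and did not pass (adjusted p = 0.348, edgeR, Benjamini-Hochberg).

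miR-103-2-5p had 4, 10 and 8 reads in GCI libraries 1, 2 and 3, and 12, 5 and 8 in Sham libraries 3, 6 and 7. The groups overlapped, and without the filter its log2 fold change was -0.23 ± 0.51 (adjusted p = 0.859, edgeR, Benjamini-Hochberg). For each read of the 5p strand there were 58.6 to 137 reads of miR-107-3p in GCI and 37.0 to 56.3 in Sham. For miR-103 there were 293 to 517 reads of miR-103-3p per read of miR-103-2-5p in GCI and 162 to 350 in Sham, where the 3p reads come from 2 hairpins and the 5p reads from 1.

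All 3 tested members were highest in GCI library 2. After each was centred on its own mean log2 CPM, miR-103-3p and miR-107-3p differed by a root mean square of 0.24 over the 6 libraries, miR-210-3p and miR-107-3p by 0.18, and miR-210-3p and miR-103-3p by 0.24. Both paralogs were next highest in Sham library 7. They parted most in GCI library 1, where miR-107-3p lay 0.43 below its mean and miR-103-3p at its mean. The pattern most like that of miR-210-3p belonged to miR-490-5p, with a root mean square difference of 0.09 over 6 libraries, followed by miR-744-3p (0.11) and miR-935 (0.12). The nearest to miR-103-3p were miR-872-5p, miR-128-1-5p and miR-30a-5p, each at 0.15. The nearest to miR-107-3p were miR-219a-5p (0.10), miR-487b-3p (0.13) and miR-666-5p (0.13). Over all other tested miRNAs the median difference was 0.36 from miR-210-3p, 0.44 from miR-103-3p and 0.40 from miR-107-3p.

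Of the other miRNAs described as raised by hypoxia in human tumour cell lines, 0 passed the adjusted threshold. Of all 440 tested miRNAs 10 passed (2.27%), so this count of 0 is near that background. All 15 on this list had an entry and 14 were tested, of which 7 had positive and 7 negative log2 fold changes, with a median of 0.03 against -0.05 over all 440. At an unadjusted p under 0.05, 3 of 14 were higher in GCI, against 10.5% of all tested miRNAs, and 1 of 14 was lower, against 6.36%. The most abundant was miR-26a-5p, a miRNA that restrains proliferation in several cell types. It stood at 13990, 130209 and 24260 CPM in GCI libraries 1, 2 and 3, against 96420, 131052 and 117048 CPM in Sham libraries 3, 6 and 7. GCI libraries 1 and 3 lay below all Sham libraries and GCI library 2 lay among them, so that its log2 fold change was -1.03 ± 0.69 without passing (adjusted p = 0.437, edgeR, Benjamini-Hochberg). It was -0.56 without GCI library 1 (adjusted p = 0.730) and -0.63 without GCI library 3 (adjusted p = 0.747, edgeR, Benjamini-Hochberg). Without GCI library 2 it was -2.59 and passed (adjusted p = 0.00275, edgeR, Benjamini-Hochberg), in a fit where 100 of 456 tested miRNAs passed.

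The 3 list miRNAs higher in GCI at an unadjusted p under 0.05 were miR-195a-5p, miR-93-5p and miR-192-5p. miR-195a-5p, which has the seed of miR-16-5p and represses cell cycle genes, stood at 590, 197 and 310 CPM in GCI libraries 1, 2 and 3 and at 211, 213 and 193 CPM in Sham libraries 3, 6 and 7. GCI library 2 lay inside the Sham range. Its log2 fold change was 0.83 ± 0.35 (adjusted p = 0.283, edgeR, Benjamini-Hochberg). It was 0.32 without GCI library 1, and 1.12 without GCI library 2, where it passed (adjusted p = 0.0199). miR-93-5p, of a paralog of the miR-17 cluster, averaged 409 ± 197 CPM in GCI and 246 ± 4.22 CPM in Sham. In GCI library 2 it stood at 244 CPM, inside the Sham range of 243 to 251 CPM. The log2 fold change of miR-93-5p was 0.73 ± 0.32 (adjusted p = 0.291, edgeR, Benjamini-Hochberg). It was 0.30 without GCI library 1, and 0.99 without GCI library 2, where it passed (adjusted p = 0.0232). miR-192-5p, a target of p53, averaged 1248 ± 272 CPM in GCI and 814 ± 172 CPM in Sham. The groups overlapped, with 984 CPM in GCI library 2 and 1011 CPM in Sham library 7. The log2 fold change of miR-192-5p was 0.62 ± 0.23 (adjusted p = 0.231, edgeR, Benjamini-Hochberg). Its log2 fold change was 0.46 without GCI library 1 (adjusted p = 0.511, edgeR, Benjamini-Hochberg). miR-192-5p passed without GCI library 2 (adjusted p = 0.0367, edgeR, Benjamini-Hochberg) but with no other library left out. In the fit without GCI library 2, 100 of 456 tested miRNAs passed.

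miR-23b-3p was the list miRNA lower in GCI at an unadjusted p under 0.05. It stood at 809, 1645 and 1257 CPM in GCI libraries 1, 2 and 3 and at 2376, 2376 and 2043 CPM in Sham libraries 3, 6 and 7, without overlap. Groups did not overlap, with GCI lower, for 3 of 14 tested list miRNAs, against 11.6% of all tested miRNAs. The others on the list were miR-23a-3p and miR-181c-5p. The change of miR-23b-3p in log2 units, -0.87 ± 0.26, did not pass (adjusted p = 0.133, edgeR, Benjamini-Hochberg), except without GCI library 2 (-1.13, adjusted p = 0.0116). In that fit 100 of 456 tested miRNAs passed. miR-26b-5p averaged 6879 ± 2285 CPM in GCI and 10245 ± 1932 CPM in Sham, and miR-30b-5p averaged 4130 ± 722 and 3728 ± 435 CPM.

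The relatives of miR-103 and miR-107 in the group of miR-15 and miR-107, which repress cyclins and other cell cycle genes, had 0 of 6 tested members past the adjusted threshold. That count is near the background of 10 in 440 tested miRNAs (2.27%). Of 7 on the list, miR-15b-5p was too low to test, and miR-195a-5p also stands on the list above. The 6 had 3 positive and 3 negative log2 fold changes, with a median of 0.07 against -0.05 over all 440. miR-16-5p, the most abundant, stood at 5463, 2216 and 3615 CPM in GCI libraries 1, 2 and 3 and at 2558, 2397 and 2678 CPM in Sham libraries 3, 6 and 7. GCI library 2 was the lowest of the 6, whereas for miR-103-3p it was the highest. The log2 fold change of miR-16-5p was 0.57 ± 0.30 (adjusted p = 0.337, edgeR, Benjamini-Hochberg), 0.21 without GCI library 1 and 0.83 without GCI library 2, where it passed (adjusted p = 0.0228). miR-15a-5p averaged 127 ± 17.7 CPM in GCI and 187 ± 12.1 CPM in Sham without overlap, a log2 fold change of -0.55 ± 0.20 (adjusted p = 0.209, edgeR, Benjamini-Hochberg). Groups did not overlap, with GCI lower, for 11.6% of all tested miRNAs. miR-15a-5p passed without GCI library 2 (adjusted p = 0.0315, edgeR, Benjamini-Hochberg), the fit in which 100 of 456 tested miRNAs passed.

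**Figure D4:**
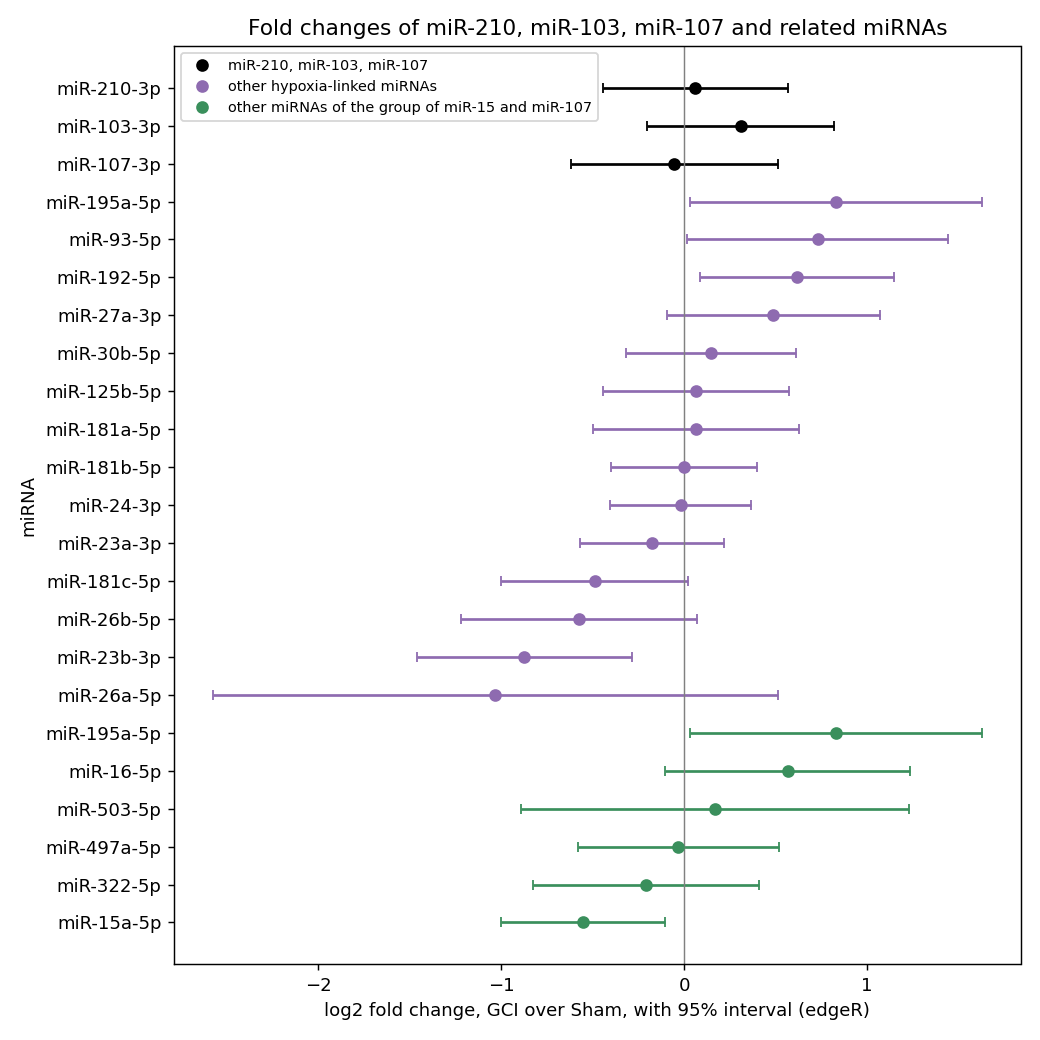
Log2 fold change of GCI over Sham with its 95% interval (horizontal axis, edgeR) for miR-210-3p, miR-103-3p and miR-107-3p (black), 14 other hypoxia-linked miRNAs (purple) and 6 other miRNAs of the group of miR-15 and miR-107 (green); miR-195a-5p appears in both lists. The intervals of the black points all include 0, and the widest interval is that of miR-26a-5p.

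GCI library 2, the highest for all 3 members, was also the GCI library with the lowest miR-195a-5p and miR-16-5p. Without it, 100 of 456 tested miRNAs passed the adjusted threshold, and miR-210-3p, miR-103-3p and miR-107-3p were not among them. Their log2 fold changes were then -0.11 ± 0.19, 0.18 ± 0.22 and -0.28 ± 0.22 (adjusted p = 0.726, 0.588 and 0.376, edgeR, Benjamini-Hochberg).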

How the data were processed

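Total RNA was extracted with TRIzol, and small RNA libraries were made from 1 µg with the NEBNext kit and sized to 135 to 155 bp (inserts of 15 to 35 nt), per the labels' protocols. Reads were handled with cutadapt and Bowtie, per the submitters' processing notes, with versions, build and miRNA reference not given in the sources used here. Tables deposited by the authors hold raw read counts for each mature miRNA entry. Of 622 names, 50 were repeated; of these the row of highest total entered the analysis. All columns of counts were used. Members and lists were chosen with earlier results of these data known.

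The test was that of edgeR 4.0.16 (R 4.3.3; filterByExpr with a minimum count of 10 and a minimum total of 15, TMM, quasi-likelihood test on group alone, Benjamini-Hochberg adjustment over 440 miRNAs). The procedure was also run on simulated counts in which all miRNAs had the same dispersion, so that run does not speak for miRNAs of unequal spread. Intervals of fold changes use the fitted SE. CPM are counts over TMM-scaled library sizes; a floor of 3 counts is 1.48 to 2.11 CPM without scaling. The biological coefficient of variation was 25.3%. Patterns were compared as log2 CPM, prior count 2, and ratios of counts an offset of 0.5. Alternatives were DESeq2 1.42.0, voom in limma 3.58.1, robust estimation, other scalings and filters, summed repeated rows and each library left out. No 2 libraries of 1 group agreed within counting noise (lowest chi-square per degree of freedom 35.8), so none was merged. Named list miRNAs were those with an unadjusted p under 0.05 and the 3 most abundant of each list.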

Additional observations from a re-analysis of the deposited data

How the results depend on the processing

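No paired analysis was possible because the groups share fewer than 2 replicate numbers. The log2 ratio of miR-210-3p to miR-210-5p was not run, since the deposited counts held no entry named miR-210-5p. miR-210-3p, miR-103-3p and miR-107-3p passed the adjusted threshold in 0 of 16 other settings each. The log2 fold change of miR-210-3p was 0.03 to 0.12 under other scalings, filters and tools and -0.11 (without GCI library 2) to 0.19 with libraries left out. That of miR-103-3p was 0.28 to 0.37 and 0.18 to 0.53. That of miR-107-3p was -0.08 to 0.01, the 0.01 (0.0082) with repeated rows summed, and -0.28 to 0.13 with libraries left out, above 0 without GCI library 1 (0.13), GCI library 3 (0.03) or Sham library 7 (0.09). The number of called miRNAs, 10 in the reported fit, was 4 with RLE size factors, 4 with the 5 most abundant miRNAs left out, 27 with DESeq2, and 0 (without GCI library 3 or Sham library 6) to 100 (without GCI library 2) with libraries left out; at an unadjusted p under 0.05, the 2 fits with 0 gave 57 and 44. The ratio of miR-107-3p to miR-103-3p differed by -0.40 with other offsets or summed rows and by -0.49 to -0.29 with libraries left out; that of miR-210-3p to both differed by -0.24 to -0.21 and by -0.39 to -0.12. The cause of these shifts was not tested. Settings for list miRNAs were added after seeing the data. With 61 to 94 reads per library, miR-210-3p had a larger relative counting error than miR-103-3p and miR-107-3p. Even so, the SE of the log2 fold change was similar for the 3, at 0.22, 0.23 and 0.25 in that order.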
